A study of Mus musculus with 28 samples.

Results

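Monocytes marked by *Ly6c2*, *Plac8* and *Chil3* were followed in the mouse arteriovenous fistula (AVF) with single-cell and bulk RNA-seq. In each of 3 single-cell libraries, a barcode was taken as a member when it had 200 to 6000 genes, at most 10% mitochondrial UMIs (unique molecular identifiers, each standing for 1 captured transcript), and set shares of marker UMIs: *Ly6c2*, *Plac8* and *Chil3* together at least 0.1% of its UMIs, *Lyz2* at least 0.3%, *C1qa*, *C1qb* and *C1qc* together under 0.2%, *Arg1*, *Mmp12* and *Spp1* together under 0.3%, *S100a8* and *S100a9* together under 1.5%, and *Col1a1*, *Col1a2*, *Col3a1* and *Dcn* together under 1.5%. The rule found 333 members among 16893 barcodes that passed the gene and mitochondrial limits, out of 26438 in the matrices. They were 27 of 6319 barcodes from contralateral veins, 227 of 4753 from early AVFs and 79 of 5821 from late AVFs.

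The animals were male and female C57BL/6 mice that had a 5/6 nephrectomy and, some weeks later, an AVF in which the cut jugular vein was joined end-to-side to the carotid artery. The controls were the contralateral jugular veins, which are thus also veins of mice with reduced kidney mass and with a fistula elsewhere. Each single-cell library (contralateral, early, late) pooled vessels of both sexes, which were digested with enzymes and treated with red blood cell lysis buffer, and there was 1 library per condition. Bulk RNA-seq had 7 contralateral veins, 8 early, 5 mid and 5 late AVFs, with 3, 10 and 21 as the day numbers in the sample titles of the AVF groups, and 5, 3, 3 and 3 female mice, respectively. These day numbers are those of the bulk AVFs alone. For each bulk AVF group the study gave a mean day with a spread, so a title number need not hold for every vessel. The study gave later mean days for the early and late single-cell AVFs, so early and late are not the same times in both assays. With 1 single-cell library per condition no test between conditions was possible, so single-cell values are given with 95% intervals for counting error only, and the bulk vessels, which the rule did not use, carry the tests.

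Classical monocytes leave the bone marrow, circulate with high Ly6C on their surface, and enter injured tissue through the chemokine receptor Ccr2 and its ligand Ccl2. In tissue they can turn into macrophages or antigen-presenting cells and lose Ly6C, while nonclassical monocytes patrol the vessel wall, carry Cx3cr1 and little Ly6C, and depend on the nuclear receptor Nr4a1. In venous walls exposed to arterial flow, monocytes are among the leukocytes that arrive after surgery.

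*Ly6c2* encodes the Ly6C surface protein of classical monocytes, *Plac8* a small cysteine-rich protein of myeloid and lymphoid cells, *Chil3* the chitinase-like protein Ym1, and *Lyz2* lysozyme of the myeloid lineage. In GRCm38 coordinates (GENCODE), *Ly6c2* lies at chr15:75108158-75111970 on the minus strand and *Ly6c1*, its close paralog, which marks many endothelial cells, at chr15:75044018-75048830 on the same strand. *Plac8* lies at chr5:100553725-100572245, *Chil3* at chr3:106147554-106167564 and *Lyz2* at chr10:117277331-117282321. All are protein-coding genes. Of the 773 windows of 50 bases in the longest coding transcript of *Ly6c2*, 252 (32.6%) also occur in *Ly6c1*, so reads of this pair can be lost or split between the genes, and both values are uncertain to that extent.

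The promoter windows of the pair are shown because the genes are neighbours with like sequence and unlike levels in the members. Each line runs 5′ to 3′ from 250 bases before to 50 bases after a RefSeq transcript start (GRCm38.p6, chr15:75111922-75112221 and chr15:75048788-75049087, both minus strand). Capitals mark GAGGAAG, a purine-rich core of the kind bound by ETS factors such as PU.1, searched on both strands.
*Ly6c2*: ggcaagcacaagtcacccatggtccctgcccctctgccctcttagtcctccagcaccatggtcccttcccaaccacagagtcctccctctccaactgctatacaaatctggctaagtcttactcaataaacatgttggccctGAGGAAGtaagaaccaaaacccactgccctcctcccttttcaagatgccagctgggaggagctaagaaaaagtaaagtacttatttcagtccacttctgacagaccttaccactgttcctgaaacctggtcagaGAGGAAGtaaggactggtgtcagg
*Ly6c1*: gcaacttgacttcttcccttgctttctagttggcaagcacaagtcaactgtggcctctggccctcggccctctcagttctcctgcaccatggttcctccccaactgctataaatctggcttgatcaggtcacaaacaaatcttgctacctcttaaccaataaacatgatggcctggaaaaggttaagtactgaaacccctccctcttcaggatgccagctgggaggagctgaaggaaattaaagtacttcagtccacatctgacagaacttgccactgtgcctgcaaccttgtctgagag
The *Ly6c2* window held 2 matches and the *Ly6c1* window 0. The *Ly6c1* window ends inside a further GAGGAAG, so its 0 depends on where the window was cut. A window at another annotated start of *Ly6c1* held that match whole, as its 1 match. The same bases (taaggactggtg) follow it as follow the later match of *Ly6c2*. The motif was present in 4477 of 32851 mouse promoter windows of this length (13.6%), and the matches are a description of the letters only.

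The members were chosen by the levels of these 4 genes and of the excluded sets, so the values below describe the choice and are not a result. *Plac8* gave most of the marker UMIs, with 72.3% in contralateral, 76.8% in early and 77.6% in late members, and it was detected in 26 of 27, 223 of 227 and 78 of 79 of them. *Ly6c2* was detected in 13, 134 and 54 members, *Chil3* in 7, 142 and 33, and all 3 genes in 6, 89 and 25. Members with *Plac8* as the sole marker numbered 13, 40 and 17. *Plac8* was also the least specific of the 3 genes. Barcodes with at least 3% collagen UMIs and 0 UMIs of the leukocyte gene *Ptprc*, the collagen class, which served as the background for free RNA, held 79.1, 633 and 346 *Plac8* CPM (UMIs of a gene, scaled to the same total of UMIs for every class and library) in contralateral, early and late libraries, against 2995, 2828 and 2626 CPM in the members. *Ly6c2* reached 834, 353 and 498 CPM in the members against 0.212, 0.782 and 1.01 CPM in the collagen class. *Chil3* reached 314, 502 and 259 CPM against 0, 0.293 and 0.0281 CPM.

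Depth differed between the libraries. The median member held 2061 UMIs in contralateral veins (range 523 to 14678), 10791 in early AVFs (537 to 27046) and 12255 in late AVFs (628 to 20355). Under 1000 UMIs were held by 7 of 27 contralateral, 9 of 227 early and 2 of 79 late members. A single marker UMI was enough for membership in 4, 8 and 2 of them, because 1 UMI is 0.1% of a barcode with 1000 UMIs. Barcodes just outside the marker limit (0.08 to 0.1%) numbered 2, 18 and 7, and those just inside (0.1 to 0.12%) 2, 13 and 7. Another 140, 305 and 195 barcodes met every other limit but had under 0.1% of marker UMIs, and 130, 185 and 140 of these had 0 such UMIs. The C1q limit alone kept out 1, 52 and 18 barcodes, and the *Arg1*, *Mmp12* and *Spp1* limit alone 0, 14 and 3. The libraries shared 5 or 6 barcode sequences per pair among the kept barcodes and 0 among the members.

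**Figure D1:**
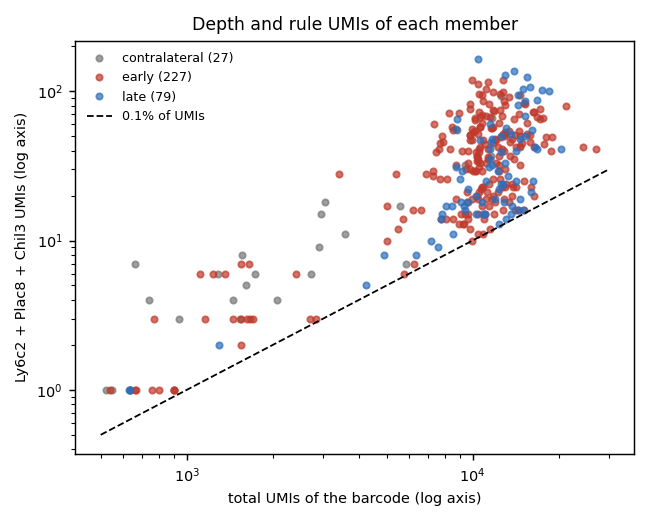
Total UMIs of each member (x axis, log scale) against its *Ly6c2*, *Plac8* and *Chil3* UMIs (y axis, log scale), with 1 point per member coloured by library and the 0.1% limit as a dashed line. Contralateral members sit mostly at low depth (median 2061 UMIs), while early and late members gather near 10791 and 12255 UMIs.

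The members made up 0.427% of kept barcodes in contralateral veins (exact binomial 95% interval 0.282 to 0.621), 4.78% in early AVFs (4.19 to 5.42) and 1.36% in late AVFs (1.08 to 1.69). The early share stood above both others with intervals that did not overlap, and the late share stood above the contralateral share in the same way. Among *Lyz2*-positive mononuclear barcodes (those that met the *Lyz2*, *S100a8*/*S100a9* and collagen limits), the members were 27 of 488 in contralateral veins (5.53%, 3.68 to 7.95), 227 of 2052 in early AVFs (11.1%, 9.74 to 12.5) and 79 of 1330 in late AVFs (5.94%, 4.73 to 7.35). On this denominator the contralateral and late intervals overlapped almost entirely. Kept barcodes with at least 1000 UMIs were also thinned to 1000 UMIs each, and those with fewer were left out. The shares were then 0.408% of 5147, 5.25% of 4320 and 1.60% of 5432 barcodes, with the libraries in the same order. The intervals do not cover differences between pools of mice, digestion or capture.

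**Figure D2:**
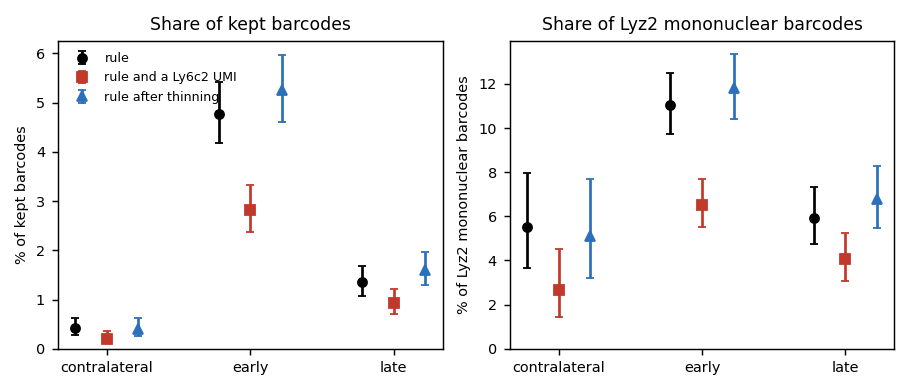
Share of members among kept barcodes (left, percent) and among *Lyz2* mononuclear barcodes (right, percent) in the 3 libraries, by the rule, with a *Ly6c2* UMI required as well, and after thinning to 1000 UMIs. Barcodes under 1000 UMIs are left out of the thinned shares. Bars are exact binomial 95% intervals, and under each of these settings the early library is highest.

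The label was checked against genes outside the rule. *Ccr2*, the receptor for Ccl2, stood at 493, 691 and 285 CPM in contralateral, early and late members, against 95.1, 154 and 148 CPM in the C1q class (barcodes with at least 0.2% C1q UMIs that met neither the *Arg1*/*Mmp12*/*Spp1* nor the *S100a8*/*S100a9* limit), and was detected in 12 of 27, 196 of 227 and 65 of 79 members. *Ms4a4c*, a membrane protein of Ly6C-high monocytes, stood at 278, 503 and 390 CPM against 20.03, 117 and 62.1 CPM. For both genes the level in the C1q class lay under that of the members in the same library. The difference was least for *Ccr2* in the late library, where 285 against 148 CPM fell short of 2-fold.

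Of the 16 classical monocyte genes outside the rule, 13 had at least 20 UMIs in the higher class in every library, and 7 were at least 2-fold higher in the members than in the C1q class in each library, with 0 lower. The median log2 ratio was 2.83, against −0.13 over all 8945 genes so measured, of which 1.40% were higher. Against the *S100a8*/*S100a9* class, 5 of 14 were higher and 1 was lower, with a median log2 ratio of 0.16, against 22.8% higher and 14.8% lower over all 1153 genes. The summed level of the whole list of 20 genes, rule genes included, was 22599, 22821 and 18719 CPM in contralateral, early and late members. The *Arg1*/*Mmp12*/*Spp1* class held 23807 and 19479 CPM in the early and late libraries, so the sum did not set the members apart from that class. Of the 16 genes outside the rule, 9 were at least 2-fold higher in the members than in that class in both libraries, and 0 were lower. Their median log2 ratio was 1.44, against −0.13 over all 6708 genes, of which 3.77% were higher and 9.54% lower. These ratios describe the classes, which were cut from the same cells, and carry no test. *Vcan*, a matrix proteoglycan of classical monocytes, and *Hp*, haptoglobin, were not specific to the members, because the collagen class held 137, 416 and 242 CPM of *Vcan* and 2.12, 1006 and 600 CPM of *Hp*.

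Macrophage genes were lower in the members than in the C1q class. *Cd163*, the haemoglobin scavenger receptor, stood at 0, 2.94 and 0 CPM in contralateral, early and late members, against 1007, 93.9 and 41.0 CPM in the C1q class. *Mrc1*, the mannose receptor, stood at 62.8, 163 and 98.1 CPM against 2853, 990 and 982 CPM. Of 13 macrophage genes measured, 10 were at least 2-fold lower in the members in each library and 0 were higher, against 3.99% of all genes lower. Within the members the same list was higher in early AVFs, with 8 of 10 genes at least 2-fold higher and 1 lower in early than in contralateral members. In late members 3 were higher and 2 lower. Over all genes, 10.0% were higher and 19.2% lower in early members, and 15.2% and 7.23% in late members. The list summed to 2314, 7512 and 3752 CPM. *Apoe*, the lipid carrier, stood at 995, 4914 and 1686 CPM, with a UMI in 97.8% of early members. The neutrophil genes *Ly6g* and *Cxcr2* had 0 UMIs in the members of every library, with *Ly6g* encoding the Ly6G surface antigen and *Cxcr2* the receptor for neutrophil-attracting chemokines. The resistin-like gene *Retnlg* stood at 0, 0.840 and 2.16 CPM in the members, against 3581, 998 and 1228 CPM in the *S100a8*/*S100a9* class.

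Markers of most other lineages were sparse. The 10 T and NK cell genes summed to 44.8, 1.26 and 25.9 CPM in the members, and 7, 7 and 3 of them were at 0. The 9 conventional dendritic cell genes summed to 233, 139 and 79.8 CPM, and 5, 1 and 2 of them were at 0, *Clec9a* among them. Of the members, 2, 3 and 4 held at least 2 UMIs of T or NK, B or plasma, or endothelial markers. Haemoglobin and platelet genes were exceptions. The 5 platelet genes summed to 359 CPM in contralateral members and to 31.5 and 8.63 CPM in early and late members, against 28.3 CPM in the contralateral collagen class. The 5 erythroid genes summed to 17281 CPM in contralateral members, 318 in early and 4.31 in late members, and to 10137, 642 and 2.39 CPM in the collagen class of the same libraries, so red cell RNA was present in both classes of the contralateral library. The part of red cell and platelet RNA in the comparisons with that library was not tested.

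**Figure D3:**
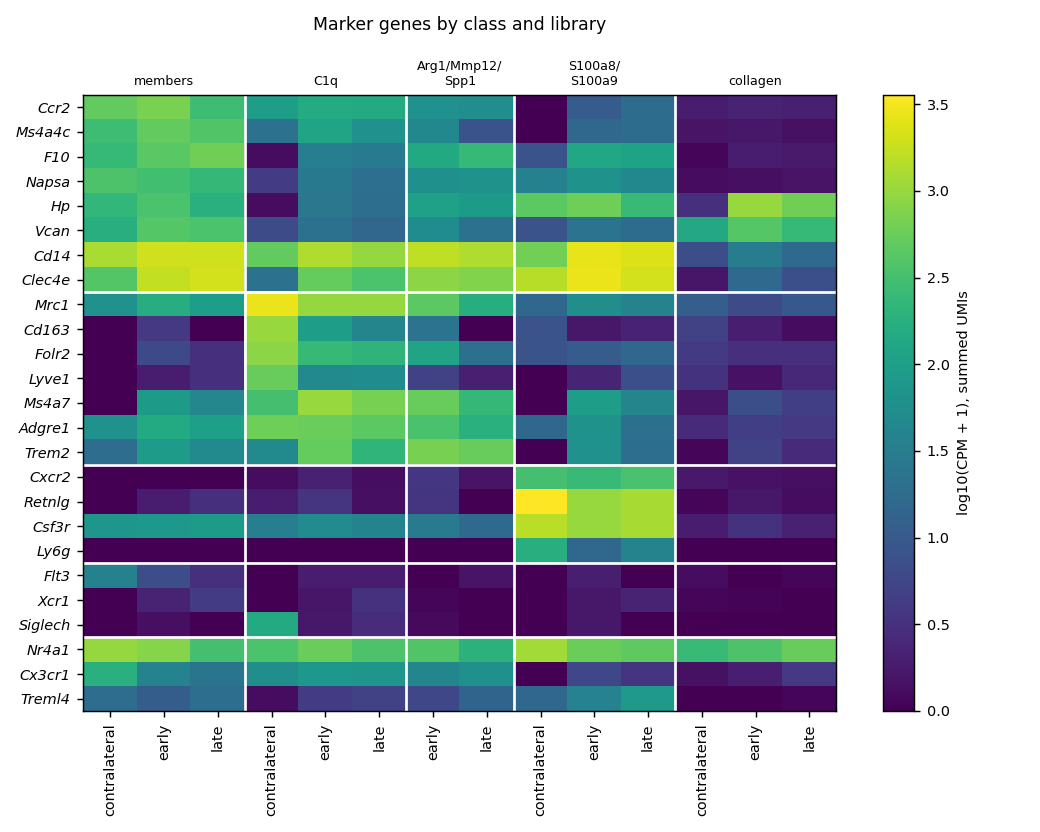
Heat map of log10(CPM + 1) of summed UMIs for marker genes (rows, in blocks for classical monocytes, macrophages, neutrophils, dendritic cells and nonclassical monocytes) in 5 classes of barcodes by library (columns). The members are bright in the classical block, with *Ccr2* at 493, 691 and 285 CPM, and dark for *Cd163*, *Ly6g* and *Cxcr2*.

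Against the C1q class, 43 of 805 genes with at least 20 UMIs in the members of every library were at least 2-fold higher in the members in all 3 libraries (5.34%), and 357 of 8936 were lower (4.00%). Ranked by the smallest of the 3 ratios, the leading gene was *Mcemp1*, a mast cell and monocyte membrane protein, at 179, 139 and 100 CPM in the members against 0.318, 6.82 and 4.77 CPM. *Gpr141*, an orphan receptor, followed at 278, 93.2 and 114 CPM against 1.27, 6.10 and 3.79 CPM. The others with high ratios included *F10*, coagulation factor X, at 242, 444 and 610 CPM against 0.318, 32.2 and 29.2 CPM. *Napsa*, an aspartic protease, and *Itgb7*, the integrin beta 7 chain, were in the same group. *Thbs1*, the matrix and platelet protein thrombospondin 1, was among the most abundant, at 2233, 5563 and 5160 CPM against 25.4, 1084 and 328 CPM, although 165 of its 249 UMIs in contralateral members came from 1 barcode.

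The genes far below the C1q class included 3 that are shown as examples. *Folr2*, a folate receptor, stood at 0, 5.04 and 2.16 CPM in the members against 858, 243 and 204 CPM. *Lyve1*, a hyaluronan receptor, stood at 0, 0.840 and 2.16 CPM against 535, 48.6 and 51.9 CPM. *Ccl8*, a chemokine, stood at 108, 35.7 and 50.7 CPM against 1961, 2263 and 1787 CPM, near or below the collagen class (90.7, 142 and 125 CPM).

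The *Arg1*/*Mmp12*/*Spp1* class had 512 early and 93 late barcodes and 0 in contralateral veins, so it was compared in the AVF libraries. Here 250 of 4561 genes were at least 2-fold higher in the members in both libraries (5.48%) and 640 of 6567 were lower (9.75%). *Ms4a4c* stood at 503 and 390 CPM in early and late members against 44.5 and 7.04 CPM. Examples on the other side follow. *Lpl*, lipoprotein lipase, was at 15.1 and 18.3 CPM in the members against 527 and 1425 CPM, and *Cd36*, the fatty acid and oxidised lipid receptor, at 26.5 and 47.5 CPM against 759 and 1313 CPM. *Atp6v0d2*, a proton pump subunit of osteoclasts and macrophages, was at 1.26 and 1.08 CPM against 50.6 and 231 CPM.

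Against the *S100a8*/*S100a9* class of 34, 635 and 197 barcodes, 263 of 805 genes were higher in the members (32.7%) and 171 of 822 were lower (20.8%). *Ccr2* was at 0, 9.77 and 16.8 CPM in that class, against 493, 691 and 285 CPM in the members. *Lcn2*, lipocalin 2 of neutrophil granules, stood at 0, 14.7 and 9.71 CPM against 4237, 1556 and 694 CPM. *Chil3* itself was higher in that class in the contralateral library, at 1153 CPM against 314 CPM in the members.

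Within the members, inflammatory mediators were higher in both AVF libraries than in the contralateral library. Of 23 such genes measured, 18 were at least 2-fold higher in early than in contralateral members and 0 were lower, with a median log2 ratio of 2.28, against 10.0% higher, 19.2% lower and a median of −0.18 over 6831 genes. In late against contralateral members the counts were again 18 and 0, with a median of 2.84, against 15.2%, 7.23% and 0.06 over 4592 genes. Both comparisons use the same 27 contralateral members and their 111511 UMIs, and have 1 library a side. The list summed to 4152, 35392 and 30458 CPM in contralateral, early and late members. In the collagen class it summed to 2341, 10568 and 15276 CPM, so the background was also higher in the AVF libraries. The part of free RNA in these counts was not tested.

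*Il1b*, the cytokine interleukin 1 beta, stood at 152 CPM in contralateral, 5468 in early and 4522 in late members, a ratio of 35.9 (95% counting interval 22.4 to 61.6) for early over contralateral and of 29.7 (18.5 to 51.0) for late over contralateral. *Cxcl2*, a neutrophil-attracting chemokine, stood at 332, 10270 and 10735 CPM, with ratios of 31.0 (22.4 to 44.0) and 32.4 (23.5 to 46.0). Its background in the collagen class was 55.9, 1128 and 1534 CPM. *Ccl4* and *Ccl3*, chemokines that attract leukocytes, stood at 143, 5186 and 1720 CPM and at 62.8, 1558 and 678 CPM, so both were highest in the early library. *Tnf*, tumour necrosis factor, was at 26.9 CPM on 3 UMIs in contralateral members, and at 802 and 627 CPM in early and late members (ratios 29.8, 10.2 to 145, and 23.3, 7.93 to 113).

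*Il1rn*, the interleukin 1 receptor antagonist, had 0 UMIs in contralateral members and stood at 310 and 524 CPM in early and late members, at least 11.5-fold and at least 19.5-fold higher against a floor of 3 UMIs. *Cxcl10*, an interferon-induced chemokine, likewise had 0 UMIs and then 368 and 493 CPM, but the collagen class held 211, 567 and 668 CPM, and the members did not exceed it in any library. The same was seen for *Ccl2*, at 8.97, 840 and 945 CPM in the members and 449, 2492 and 3475 CPM in the collagen class. *Ptgs2*, the inducible cyclooxygenase, stood at 188, 1744 and 1353 CPM, and 20 of its 21 contralateral UMIs were in 1 barcode. *Acod1*, which makes itaconate, stood at 161, 205 and 289 CPM, and all 18 contralateral UMIs were in 1 barcode.

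Barcodes that met every limit of the rule except that on the marker genes (140, 305 and 195 in the contralateral, early and late libraries) lay close to the members in the sum of this list. Their inflammatory mediators summed to 3230, 37459 and 30707 CPM, against 4152, 35392 and 30458 CPM in the members, so the difference between AVF and contralateral libraries was not particular to the members. In other ways these barcodes were unlike the members in the contralateral library, with a median of 872.5 against 2061 UMIs. Their macrophage genes summed to 8888 against 2314 CPM there, and their platelet genes to 7698 against 359 CPM. The contralateral C1q class did not share the low level of inflammatory mediators. It held 4666 CPM of *Cxcl2*, 5166 of *Ccl4* and 1950 of *Ccl2*, against 332, 143 and 8.97 CPM in the contralateral members. In early AVFs the C1q class and the members lay close for *Cxcl2* (10220 and 10270 CPM), and for *Il1b* the members were the higher (5468 against 1416 CPM). The difference between these differences was not tested.

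**Figure D4:**
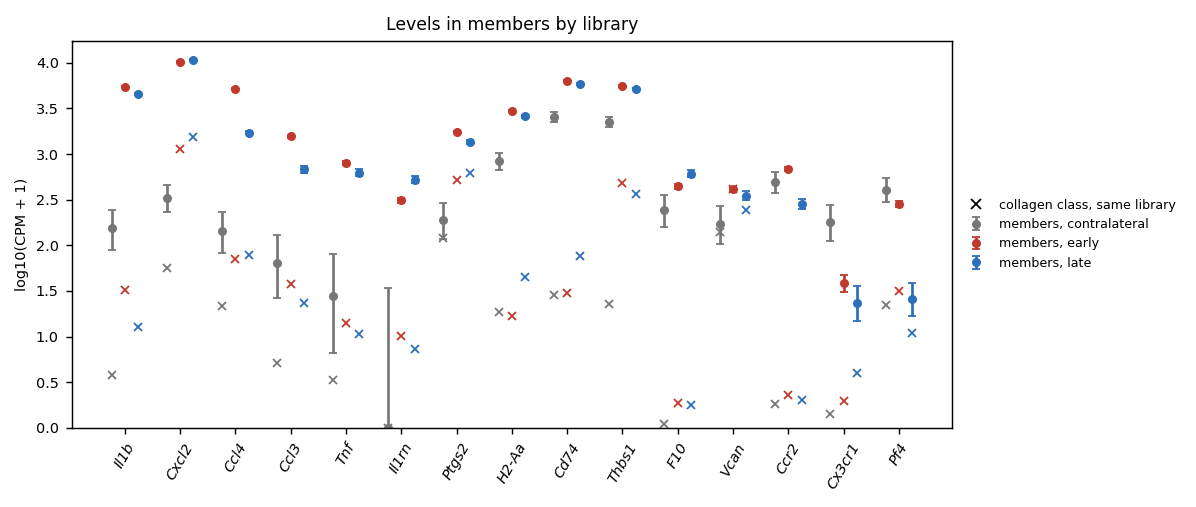
Level of 15 genes in the members of each library as log10(CPM + 1), with 95% Poisson intervals for counting error (points and bars), and in the collagen class of the same library (crosses). *Il1b*, *Cxcl2*, *Ccl4*, *Ccl3* and *Tnf* lie far lower in contralateral members than in either AVF library, while *Cx3cr1* is highest in contralateral members, at 179 CPM.

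MHC class II genes, which present peptides to helper T cells, were also higher in the AVF members, with 6 of 7 at least 2-fold higher in early and 5 of 6 in late against contralateral members. Of all genes measured, 10.0% were higher in early and 15.2% in late members. *H2-Aa* stood at 834, 2949 and 2579 CPM, and *Cd74*, the invariant chain, at 2547, 6320 and 5869 CPM. Of the interferon-stimulated genes, 8 of 16 were higher in early and 7 of 14 in late members, and 0 were lower in either. The shares over all genes were 10.0% higher and 19.2% lower in early members, and 15.2% and 7.23% in late members. *Rsad2*, the antiviral protein viperin, stood at 53.8, 445 and 348 CPM. *Isg15*, a ubiquitin-like modifier, stood at 17.9, 417 and 370 CPM, with a collagen class background of 42.9, 258 and 104 CPM.

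Of 14 adhesion and chemokine receptor genes, 0 were higher and 4 lower in early members, and 1 was higher and 4 lower in late members, where 19.2% and 7.23% of all genes were lower. *Itga4*, the alpha 4 integrin chain, stood at 197, 65.5 and 44.2 CPM and *Itgb7*, its beta 7 partner, at 287, 76.4 and 143 CPM, both highest in the contralateral library. *Cxcr4*, the bone marrow retention receptor, stood at 906, 722 and 614 CPM, and *Cd44*, a hyaluronan receptor, at 888, 886 and 1705 CPM. Of 10 growth factor receptor genes, 0 were 2-fold higher and 0 lower in early members, against 10.0% and 19.2% of all genes. *Csf1r*, the receptor for macrophage colony-stimulating factor, stood at 278, 355 and 307 CPM.

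Among transcription factors, *Hif1a*, which responds to low oxygen, stood at 224, 580 and 734 CPM, *Cebpb*, a myeloid regulator, at 3103, 3696 and 3415 CPM, and *Spi1*, which encodes PU.1, at 430, 368 and 518 CPM. *Hif1a* was the 1 of 14 factors that was 2-fold higher in early members, and 2 were lower, with 1 higher and 2 lower in late members. Of 13 genes of glycolysis and hypoxia, 3 were higher and 1 lower in early members and 5 higher and 0 lower in late members. For both lists, the shares over all genes were 10.0% higher and 19.2% lower in early members, and 15.2% and 7.23% in late members. *Ldha*, lactate dehydrogenase A, stood at 80.7, 231 and 331 CPM, but its background was 89.5, 228 and 145 CPM. *Hilpda*, a hypoxia-induced lipid droplet protein, stood at 62.8, 368 and 384 CPM over a background of 22.8, 80.3 and 64.0 CPM. The 12 cell division genes summed to 26.9, 40.7 and 39.9 CPM in the members and to 96.7, 315 and 332 CPM in the C1q class.

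Nonclassical monocyte genes lay the other way, with 0 higher and 4 of 8 at least 2-fold lower in early members and 0 higher and 4 of 7 lower in late members, where 19.2% and 7.23% of all genes were lower. *Cx3cr1*, the fractalkine receptor, stood at 179, 37.4 and 22.6 CPM on 20, 89 and 21 UMIs, 4.80-fold higher in contralateral than in early members (2.80 to 7.86) and 7.92-fold higher than in late members (4.07 to 15.4). The contralateral UMIs came from 18.5% of the 27 barcodes, 9 of them from 1 barcode, and with each member weighted equally the log2 ratios against contralateral members were −1.25 in early and −1.40 in late members, smaller than both intervals allow. *Itgal*, the alpha chain of LFA-1, stood at 260, 68.5 and 84.1 CPM. *Spn*, the sialoglycoprotein CD43, stood at 62.8, 5.88 and 10.8 CPM on 7, 14 and 10 UMIs. *Treml4*, a receptor of nonclassical monocytes, stood at 17.9, 10.1 and 18.3 CPM, with intervals that covered no change. *Nr4a1* stood at 977, 800 and 318 CPM, and 89 of its 109 contralateral UMIs came from 1 barcode.

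Across all genes that met the fixed limits on UMIs, detection and background, 268 of 1130 were at least 2-fold higher (23.7%) and 52 lower (4.60%) in early against contralateral members, and 338 of 1251 higher (27.0%) and 40 lower (3.20%) in late against contralateral members. The balance depended on those limits, since over all 6831 genes with 20 UMIs in either library 10.0% were higher and 19.2% lower in early members, and the early members held 2380714 UMIs against 111511 in the contralateral members. Besides haemoglobin *Hba-a2*, the genes lower in early members were led by *Hes1*, a Notch target (529 CPM in contralateral and 26.9 in early members), *Gng11*, a G protein subunit (287 and 25.6 CPM), and the platelet chemokine *Ppbp* (224 and 20.6 CPM). The direction of *Ppbp* turned among members with at least 1000 UMIs, to a log2 ratio of 0.17. *Hspa1a*, a heat shock protein made under stress, stood at 7192, 5418 and 2116 CPM in the members, while the collagen class ran the other way at 2123, 3474 and 5324 CPM.

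Between the AVF libraries, 120 of 1864 genes were at least 2-fold higher (6.44%) and 88 lower (4.72%) in late than in early members. This balance too depended on the limits, since over all 6856 genes measured 3.54% were higher and 6.07% lower. *Ccr2* stood at 691 CPM in early and 285 in late members, 2.43-fold higher in early members (2.13 to 2.78). The chemokine *Ccl4* was 3.01-fold higher in early members (2.86 to 3.18), and *Apoe* 2.91-fold higher (2.76 to 3.07). The platelet and macrophage chemokine *Pf4* stood at 283 CPM in early and 24.8 in late members, and 136 of its 673 early UMIs were in 1 barcode.

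In the other direction, *Kcnn4*, a calcium-activated potassium channel, stood at 152 CPM in late and 21.8 in early members, a ratio of 6.96 (5.03 to 9.76). *Gbp2*, an interferon-induced GTPase, stood at 163 and 30.7 CPM, but at 73.0 and 60.9 CPM in the collagen class. *Il7r*, the interleukin 7 receptor, stood at 145 and 29.0 CPM, with a ratio of 4.99 (3.70 to 6.77). *Pou2f2*, the factor Oct-2, stood at 249 and 58.4 CPM. *Inhba*, a subunit of activin A, stood at 534 and 173 CPM and *Mmp19*, a matrix metalloproteinase, at 669 and 228 CPM.

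The members with and without a *Ly6c2* UMI were set side by side, since nearly all members carried *Plac8*. Members with *Ly6c2* numbered 13, 134 and 54 and those without 14, 93 and 25, with median depths of 3583 and 1550.5, 11140 and 9957, and 12953.5 and 10253 UMIs. Of the MHC class II genes with at least 20 UMIs, 5 of 5 in contralateral, 4 of 7 in early and 6 of 6 in late members were higher without *Ly6c2*, with a counting interval above 1, and 0 were lower, where 6.04%, 6.73% and 6.78% of all genes were higher. *H2-Ab1*, a class II beta chain, stood at 1850 CPM without and 170 with *Ly6c2* in contralateral members (ratio 10.9, 5.96 to 21.2), at 3339 and 2233 CPM in early members (1.495, 1.42 to 1.57), and at 4235 and 1421 CPM in late members (2.98, 2.73 to 3.26). *Cd74* stood at 5825 and 1385, 7886 and 5540, and 10557 and 4332 CPM in the same order.

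*Isg15* lay the other way in the AVF libraries, at 508 CPM with and 233 without *Ly6c2* in early members and at 444 and 144 CPM in late members. *Cxcl1*, a neutrophil-attracting chemokine, was lower with *Ly6c2*, at 366 and 780 CPM in early and 421 and 895 CPM in late members, over a collagen class background of 3147 and 4564 CPM. The inflammatory mediators, which include *Cxcl1*, did not keep a direction between libraries. Of 23 with at least 20 UMIs in early members, 13 were higher without and 5 with *Ly6c2*, by counting intervals that excluded no change. In late members 4 of 23 were higher without and 16 with *Ly6c2*, so *Cxcl1* ran against most of its list there. In contralateral members 0 of 8 were higher without and 4 with *Ly6c2*. Of all genes, 6.04%, 6.73% and 6.78% were higher without *Ly6c2* in contralateral, early and late members. No such share is given for genes higher with *Ly6c2*, so the counts in that direction have no background beside them. *F10* did not keep a ratio between libraries, at 461 and 409 CPM in early but 758 and 162 CPM in late members. Since *Ly6c2* detection used the same cells, these values are a description.

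In bulk RNA-seq most classical monocyte genes rose in early AVFs. Of 20 classical monocyte genes tested, 14 rose in early AVFs against contralateral veins and 0 fell (edgeR quasi-likelihood test, adjusted *p* under 0.01 and at least 2-fold), with a median log2 fold change of 2.95, where 6.17% of all 12673 genes tested rose and the median over all genes was −0.01. In mid AVFs 4 rose (2.74% of all genes) and 1 fell (3.31%), and in late AVFs 3 rose (2.49%) and 1 fell (2.85%). Late against early AVFs, 4 fell (2.28% of all genes) and 0 rose (0.726%), and these 4 calls became 0 without late replicate 16, 19 or 24. In mid against early AVFs 0 passed by the edgeR quasi-likelihood test, 13 of 20 were lower at an unadjusted *p* under 0.05, and 5 by DESeq2 and 4 by the edgeR likelihood ratio test were called lower. Of all 12673 genes 1 passed in that comparison, upward (0.00789%). In early AVFs 1 of the 20 (*Mgst1*) was lower at an unadjusted *p* under 0.05, and was called lower by both other tests. Bulk levels are those of whole vessels, in which more cells of a type and more RNA per cell cannot be told apart, and all comparisons with contralateral veins share the 7 veins. The number of genes detected also moved with the groups, at 11958 to 18283 in the veins, 17514 to 25141 in early AVFs and 24529 to 26771 in mid and late AVFs, and its part in the comparisons with the veins was not tested. Early replicates 5 and 6 had the fewest among the AVFs (19074 and 17514) at the highest totals (67457501 and 53097813 counts). Without both, a choice made after seeing the data, 13 of the 20 genes rose in early AVFs and 1 fell in late against early AVFs.

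*Ly6c2* was at 0.386 to 4.56 CPM in contralateral veins (median 0.613) and at 52.9 to 899 CPM in early AVFs (median 116). The mid AVFs held 12.3, 14.7, 15.8, 28.0 and 25.6 CPM and the late AVFs 11.7, 23.8, 7.69, 29.5 and 19.4 CPM. Every AVF lay above every vein, and every mid and late AVF lay below every early AVF. Of all 12673 genes, 4.47% lay above every vein in all early AVFs, 7.32% in all mid AVFs and 6.25% in all late AVFs, and 5.20% and 8.39% lay below every early AVF in all mid and all late AVFs, respectively. The log2 fold change was 7.18 ± 0.80 (SE) in early (edgeR adjusted *p* = 2.48e-07), 3.68 ± 0.71 in mid (adjusted *p* = 0.000813) and 3.61 ± 0.71 in late AVFs (adjusted *p* = 0.00119). It was −3.56 ± 0.77 in late against early AVFs (adjusted *p* = 0.00515) and −3.50 ± 0.77 in mid against early AVFs, where the adjusted *p* of 0.0131 missed the threshold. That comparison passed by DESeq2 (adjusted *p* = 7.82e-05), by the edgeR likelihood ratio test (adjusted *p* = 0.000978) and without early replicate 1, 2 or 10 (edgeR adjusted *p* 0.00511 to 0.00979). The late against early call was lost without early replicate 6 (log2 −2.70, edgeR adjusted *p* = 0.0117) and without any of the 5 late AVFs (adjusted *p* 0.0121 to 0.0245), and without early replicates 5 and 6 together (log2 −2.83, adjusted *p* = 0.0164). In female mice alone the mid and late calls were lost (edgeR adjusted *p* = 0.0319 and 0.0537).

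*Chil3* was at 0 to 13.1 CPM in contralateral veins (median 0.175) and at 30.6 to 1741 CPM in early AVFs (median 354), again without overlap. The mid AVFs held 6.09, 6.06, 8.61, 16.8 and 9.86 CPM and the late AVFs 1.76, 14.9, 3.89, 2.52 and 12.8 CPM, all below the early AVFs and overlapping the veins. *Chil3* rose by 7.999 ± 1.34 on the log2 scale in early AVFs (edgeR adjusted *p* = 7.93e-05), and fell by 6.45 ± 1.46 on that scale in late against early AVFs (adjusted *p* = 0.00652). In mid and late AVFs the edgeR adjusted *p* against the veins was 0.276 and 0.412. The late against early call was lost without early replicate 3, 5, 6 or 7 (adjusted *p* 0.0104 to 0.0139) and without any of the 5 late AVFs (adjusted *p* 0.0190 to 0.0254), where the log2 value stayed between −6.93 and −6.04. It was also lost without early replicates 5 and 6 together (edgeR adjusted *p* = 0.0237).

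*Plac8* was at 69.1 to 251 CPM in veins (median 102) and at 86.9 to 726 CPM in early AVFs (median 287), and the groups overlapped. The mid AVFs held 65.9, 85.1, 45.1, 121 and 86.3 CPM and the late AVFs 51.3, 86.6, 35.8, 44.0 and 48.7 CPM. Early against contralateral, its log2 fold change was 1.22 ± 0.38 and the edgeR adjusted *p* of 0.0201 missed the threshold, while DESeq2 (log2 1.21, adjusted *p* = 0.00596) and the edgeR likelihood ratio test (log2 1.22, adjusted *p* = 0.00926) called it. It fell by 2.53 ± 0.46 on the log2 scale in late against early AVFs (edgeR adjusted *p* = 0.00241), and every late AVF lay below every early AVF. That call was lost without late replicate 16, 19 or 24 (adjusted *p* = 0.0126, 0.0116 and 0.0138), and the early call was gained without early replicate 7 (log2 1.36, edgeR adjusted *p* = 0.00717).

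*Lyz2* was at 1231 to 5379 CPM in veins and at 8459 to 27567 CPM in early AVFs, and rose at all 3 times, by 2.61 ± 0.29, 1.73 ± 0.31 and 1.47 ± 0.30 on the log2 scale (edgeR adjusted *p* = 2.66e-07, 0.000324 and 0.00197). The mid and late calls of *Lyz2* were lost in female mice alone. *Ccr2* was at 2.82 to 223 CPM in veins (median 66.8) and at 195 to 547 CPM in early AVFs (median 289). The mid AVFs held 218 to 361 CPM and the late AVFs 197 to 331 CPM, and each AVF group overlapped the veins. Its log2 fold change of 1.77 ± 0.45 passed in early AVFs (edgeR adjusted *p* = 0.00499), and the adjusted *p* in mid and late AVFs was 0.0337 and 0.0397. The early call was lost without contralateral replicate 27, 35 or 633 or early replicate 4 or 10 (edgeR adjusted *p* 0.01001 to 0.0150), and the mid and late calls were gained without contralateral replicate 28 or 632 (edgeR adjusted *p* 0.00597 to 0.00862). *Ly6c1* was at 319 to 1358 CPM in veins and at 107 to 599 CPM in early AVFs, and the edgeR adjusted *p* was 0.177, 0.230 and 0.277 at the 3 times.

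**Figure D5:**
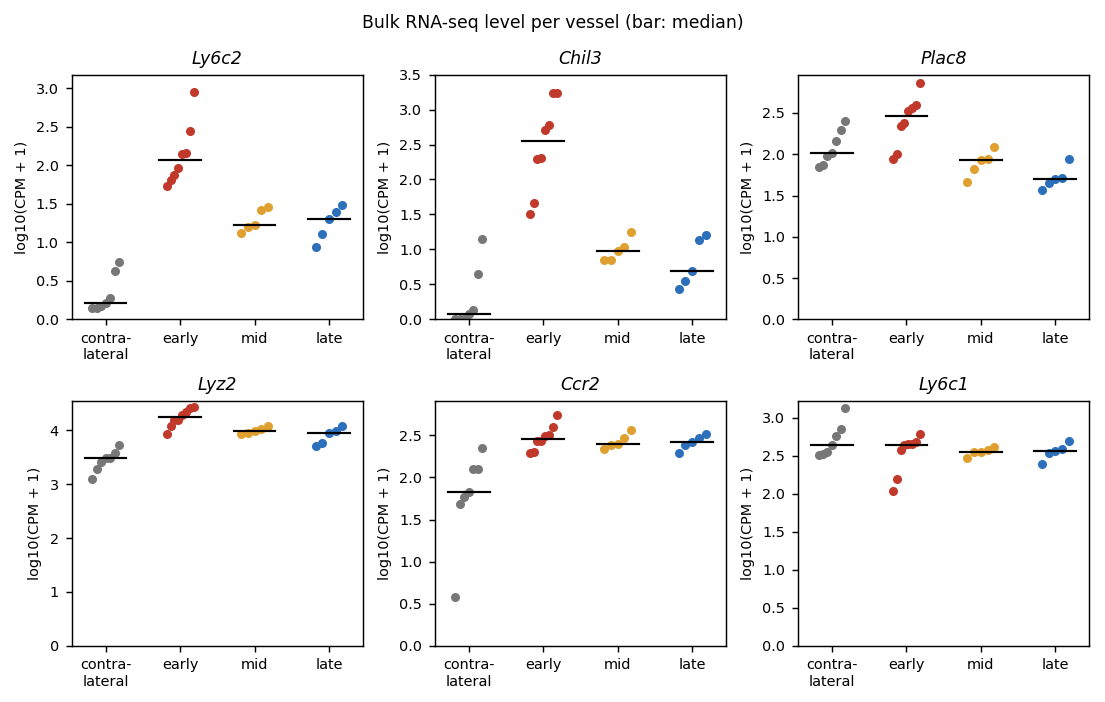
Bulk level of 6 genes in each of 25 vessels as log10(CPM + 1) by group, with 1 point per vessel and a bar at the group median. *Ly6c2* and *Chil3* are highest in the 8 early AVFs (medians 116 and 354 CPM), *Plac8* and *Ccr2* overlap between veins and early AVFs, and *Ly6c1* overlaps across all groups.

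The other classical genes that rose in early AVFs were *Cd14*, *Clec4e*, *F10*, *Hp*, *Itgam*, *Lst1*, *Ly6i*, *Ms4a4c*, *Napsa* and *Vcan*. *Napsa*, low in the C1q class, was at 0 to 1.79 CPM in veins and at 18.3 to 87.4 CPM in early AVFs, and rose at all 3 times, by 5.84 ± 0.70, 4.86 ± 0.69 and 4.58 ± 0.68 on the log2 scale (edgeR adjusted *p* = 6.91e-07, 2.24e-05 and 5.19e-05). Its mid and late calls were lost in female mice alone. *Ms4a4c* was at 0.187 to 62.0 CPM in veins and at 64.8 to 545 CPM in early AVFs, and passed in early AVFs with a log2 fold change of 3.68 ± 0.72 (edgeR adjusted *p* = 0.000451). *Clec4e*, the Mincle receptor, rose in early and mid AVFs (log2 fold changes 5.95 ± 1.11 and 4.87 ± 1.09, edgeR adjusted *p* = 0.000282 and 0.00334). *Mgst1*, a glutathione transferase with 316 to 356 CPM in the single-cell collagen class, was the gene that fell in mid and late AVFs (log2 −1.93 ± 0.40 and −1.90 ± 0.40, edgeR adjusted *p* = 0.00149 and 0.00207).

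The nonclassical monocyte list did not move one way. Of 10 genes tested, *Cx3cr1* and *Pou2f2* rose and *Ace*, *Ear2* and *Nr4a1* fell in early AVFs by the edgeR quasi-likelihood test. Of all genes, 6.17% rose and 6.45% fell there. *Cx3cr1* alone passed in mid and in late AVFs, where 2.74% and 2.49% of all genes rose. *Ace* rose in late against early AVFs (0.726% of all genes). *Cx3cr1* was at 0 to 5.48 CPM in veins (median 0) and at 29.9 to 73.9 CPM in early AVFs (median 60.1). The mid AVFs held 48.4, 49.2, 72.7, 63.8 and 102 CPM and the late AVFs 58.8, 91.1, 63.9, 51.1 and 71.1 CPM. Every AVF lay above every vein and the AVF groups overlapped, with log2 fold changes of 5.85 ± 1.01, 6.09 ± 1.05 and 6.09 ± 1.05 (edgeR adjusted *p* = 0.000113, 0.000256 and 0.000315). In the single-cell libraries the C1q class held more *Cx3cr1* (77.8 and 74.9 CPM in early and late AVFs) than the members did.

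Of the 23 inflammatory mediators tested in bulk, early AVFs had 17 that rose, mid AVFs 12 and late AVFs 8. Of all 12673 genes tested, 6.17%, 2.74% and 2.49% rose in early, mid and late AVFs by the edgeR quasi-likelihood test. The same shares apply to the other lists of this paragraph. *Il1rn* was at 0 to 0.946 CPM in veins and at 81.2 to 370 CPM in early AVFs, with 60.3 to 118 CPM in mid and 33.7 to 66.7 CPM in late AVFs, and its log2 fold change in early AVFs was 9.01 ± 0.69 (edgeR adjusted *p* = 6.43e-10). *Il1b* was at 0 to 43.4 CPM in veins (median 0.313) and at 40.1 to 213 CPM in early AVFs, with a log2 fold change of 4.05 ± 1.07 (edgeR adjusted *p* = 0.00651). Of 11 recruitment ligand genes, *Ccl2* and *Ccl7* rose in early AVFs and 0 passed later by the edgeR quasi-likelihood test, where 3 in mid and 4 in late AVFs were higher at an unadjusted *p* under 0.05, and DESeq2 and the edgeR likelihood ratio test called 2 and 1 in mid and 0 in late AVFs. *Ccl2* was at 0.125 to 31.7 CPM in veins and at 110 to 2247 CPM in early AVFs, without overlap (log2 5.20 ± 0.74, edgeR adjusted *p* = 9.03e-06). The mid AVFs held 74.7 to 119 CPM and the late AVFs 60.8 to 109 CPM of it. Of 7 MHC class II genes, 0 passed the edgeR quasi-likelihood test at any time, 1, 5 and 6 were higher in early, mid and late AVFs at an unadjusted *p* under 0.05, 1 was called higher in early and 1 in late AVFs by DESeq2 and by the edgeR likelihood ratio test, and the early log2 fold change of *H2-Aa* was 0.10 ± 0.36 (edgeR adjusted *p* = 0.885).

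Other leukocyte markers moved in the same bulk samples, and their part in the monocyte gene changes was not tested. In early AVFs 7 of 11 neutrophil genes and 9 of 16 macrophage genes rose, where 6.17% of all genes rose by the edgeR quasi-likelihood test. By that test 0 of 5 T and NK cell genes and 0 of 4 B and plasma cell genes rose. For these 1 of each was higher at an unadjusted *p* under 0.05, 1 of each by DESeq2, and 1 and 0 by the edgeR likelihood ratio test. In the early single-cell library, members held 39.2% of all *Ly6c2* UMIs, 43.2% of *Chil3* UMIs and 33.8% of *Plac8* UMIs, and in the late library 11.6%, 57.1% and 9.24%.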

How the data were processed

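The single-cell matrices were deposited by the authors as raw UMI counts per gene and barcode (Cell Ranger 6.0.2 per the file headers, 32285 genes, GRCm38). The bulk table was deposited as raw read counts of 56980 genes, with the total per library between 20254173 and 67457501, and the counting tool was not given in the sources used here. Symbols for 32210 bulk genes were taken from the matrices. The members and gene lists were chosen with earlier results of these data known.

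Barcodes were kept at 200 to 6000 genes and a mitochondrial share of 10% or less, and classed by the shares stated. No doublet caller was run, and members with at least 2 UMIs of another lineage were counted. UMIs of a class were summed per library and scaled to CPM. Shares carry exact binomial, levels exact Poisson and ratios conditional binomial 95% intervals, which cover counting error only, and a gene at 0 was set to a floor of 3 UMIs per library for a bound. Genes named between classes had at least 20 UMIs and a 2-fold difference the same way in each library with 20 or more barcodes a class, ranked by the smallest ratio. Between libraries they also had a UMI in at least 10% of the members and at least 2 times the CPM of the collagen class, ranked by the interval bound nearest to 1. Up to 12 genes a direction were eligible, besides the fixed lists.

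Bulk genes whose DESeq2-normalized counts averaged 100 or more (12673) were fitted in 1 edgeR 4.0.16 quasi-likelihood model of 25 libraries in 4 groups with TMM (R 4.3.3), and called at a Benjamini-Hochberg adjusted p under 0.01 with a change of 1 or more on the log2 scale in either direction. Bulk CPM use TMM effective library sizes. Nothing states that vessels of a group came from separate litters or days, so p-values measure the spread between these vessels. DESeq2 1.42.0, the edgeR likelihood ratio test, other filters and scalings, a sex term, female mice alone and each library left out were alternatives. The fits were checked on simulated counts. Promoters were read from RefSeq (GRCm38.p6). Python 3.11.15, numpy 2.4.6, scipy 1.17.1 and pandas 2.3.3 were used.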

Additional observations from a re-analysis of the deposited data

Results flagged for a closer look

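In 24 groups of bulk vessels (6 genes in 4 groups), 3 held a vessel far from the rest of its group by Dixon's criterion, which chance meets in about 1 of 20 groups. *Ly6c2* in early replicate 6 was at 899 CPM, with the next early AVF at 278 CPM. *Chil3* in contralateral replicate 27 was at 13.1 CPM, with the next vein at 3.51 CPM. *Ly6c1* in contralateral replicate 34 was at 1358 CPM, with the next vein at 710 CPM.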

How the results depend on the processing

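No paired analysis was possible because the bulk groups share no replicate numbers and each single-cell condition had 1 library. The early library had the highest share of members under every alternative tried. Shares of kept barcodes moved by more than counting error to 0.206% in contralateral veins, 3.39% in early and 0.790% in late AVFs with *Lyz2* at least 0.6%, to 0.206%, 2.82% and 0.928% with a *Ly6c2* UMI required, to 3.35% and 0.756% in early and late AVFs with marker genes at least 0.2%, to 0.237% in contralateral veins with collagens under 0.5%, and to 5.51% and 3.99% in early AVFs with a mitochondrial limit of 5% or none. Shares of *Lyz2* mononuclear barcodes moved to 2.66%, 6.53% and 4.06% with a *Ly6c2* UMI, to 7.75% and 3.31% in early and late AVFs at 0.2%, to 3.58% in contralateral veins with collagens under 0.5%, and to 12.9% in early AVFs at 5% mitochondrial UMIs. With each member weighted equally, chosen after seeing the data, 459 genes were 2-fold higher in early and 542 in late against contralateral members. *Ppbp* reversed to a log2 ratio of 0.17 in early against contralateral members with at least 1000 UMIs.

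In bulk, calls in the classical monocyte list depended on the mice and the tool. Female mice alone gave 4 higher and 1 lower gene in early AVFs, 0 higher in mid, 0 higher and 0 lower in late, and 0 lower in late against early AVFs, on fewer vessels. DESeq2, the likelihood ratio test, filterByExpr and no filter each gave 1 lower gene in early AVFs. DESeq2 and the likelihood ratio test gave 5 higher in late AVFs and 5 and 4 lower in mid against early AVFs, and DESeq2 9 lower in late against early AVFs. When single libraries were left out, the early list had 12 to 15 higher and 0 to 1 lower genes, the mid list 4 to 7 higher, the late list 3 to 5 higher, mid against early 0 to 4 lower and late against early 0 to 6 lower (0 without late replicate 16, 19 or 24, and 6 without contralateral replicate 28). Without early replicates 5 and 6 together, chosen after seeing the data, 1 gene was lower in late against early AVFs. The 14 genes that rose in early AVFs all remained under DESeq2, the likelihood ratio test, both other filters and the sex term. The cause of these shifts was not tested. The intervals cover counting error alone, and 27 contralateral members with 111511 UMIs limit every comparison with that library.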

Other observations

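Most *Ly6c2* UMIs lay outside the members in every library, and the barcodes that held them differed in kind between libraries. In contralateral veins, members held 21.0% of 443 *Ly6c2* UMIs, and barcodes outside the *Lyz2* and collagen classes with at least 2 UMIs of T or NK cell genes held 64.8%. In late AVFs, members held 11.6% of 3984 *Ly6c2* UMIs, while barcodes with at least 2 UMIs of B or plasma cell genes held 36.8% and those with T or NK cell genes 29.7%. In early AVFs members held the largest share, 39.2% of 2142 UMIs, and the other *Lyz2* and collagen classes held 33.3%.

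The level of *Ly6c2* was highest in the members in contralateral and early libraries, at 834 and 353 CPM, and the B or plasma barcodes exceeded the members in the late library. T or NK barcodes held 108, 178 and 239 CPM of *Ly6c2* in contralateral, early and late libraries. B or plasma barcodes held 12.0 CPM in 330 contralateral barcodes, 229 CPM in 39 early barcodes and 555 CPM in 138 late barcodes, against 498 CPM in late members. These summed levels came from a minority of the B or plasma barcodes. A *Ly6c2* UMI was found in 15.4% of the early and 15.9% of the late ones, against 59.0% and 68.4% of the members. The paralog *Ly6c1* was the reverse of *Ly6c2* in the collagen class, at 291, 276 and 509 CPM there and 0, 4.62 and 12.9 CPM in the members.

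*Prtn3*, the proteinase 3 of myeloid precursors, was at 48.4 CPM in early members with *Ly6c2* and 7.58 CPM in those without (ratio 6.39, 2.81 to 17.95), and *Mpo*, another granule gene of precursors, had 0 UMIs in the members.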
